A study of Mus musculus with 1536 samples.

Results

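Zeb2, Bcl11b and Pou3f1 are 3 transcription factor genes that were followed through the single-cell transcriptomes of serotonin neurons from the mouse raphe, and they were chosen because their levels in the deposited table had already been seen to rise in cells with Piezo2, the gene of a mechanically gated cation channel. They are 3 of 53263 genes listed, of which 25522 had a read in at least 3 cells. The values that chose them are the shares of cells with a read and their correlations with Piezo2, so those values are given as descriptions and no test was made on them. The cells came from C57BL/6J mice of both sexes aged 40 to 45 days that carried Sert-Cre, which makes Cre recombinase under the serotonin transporter gene, and Ai14, which makes the red protein tdTomato where Cre has acted. Red cells were sorted singly, and each was turned into 1 Smart-seq2 library, a full-length cDNA library with no molecular identifiers. The pDR dissection took the principal dorsal raphe alone and gave 290 cells on 5 plates, and the mixed dissection took the principal and caudal dorsal raphe (pDR and cDR) with the median raphe (MR) and gave 709 cells on 11 plates. The labels call the mixed dissection a dorsal raphe sample, and the median raphe is named in the study's text. The study took several brains for each dissection, but no label ties a cell to an animal. Each dissection was therefore 1 sample, and no p-value was computed. A plate here is the SER number in a cell's name, and reading that number as a plate is an inference. The number of plates that share a direction is given as a description only, since plates are not animals.

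Zeb2 encodes a zinc finger and homeodomain protein that represses its targets with the CtBP and NuRD corepressors and binds receptor-activated SMAD proteins, and it acts in neural crest and in the migration and maturation of forebrain neurons. Bcl11b, also called Ctip2, encodes a zinc finger protein that can sit in the BAF chromatin remodelling complex and is known for its part in corticospinal and striatal neurons. Pou3f1, also called Oct6 or SCIP, encodes a POU-domain protein known from Schwann cells and from the early nervous system. Transcription factors of this kind are often kept on in adult neurons as part of the code that tells one subtype from another. Serotonin neurons share a common set (Fev, Gata2, Gata3 and Lmx1b) on which such subtype factors are laid.

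In GENCODE M21 on GRCm38, Zeb2 lies on chromosome 2 (44983632 to 45117395, minus strand) with 18 exon blocks of 19.9 kb in all. Bcl11b lies on chromosome 12 (107910403 to 108003602, minus strand) with 4 blocks of 8.11 kb, and Pou3f1 lies on chromosome 4 (124656807 to 124660655, plus strand) as a single block of 3.85 kb. The counting ignored strand, and exons of Zeb2 and Pou3f1 overlap genes on the opposite strand. Of these, Gm2164 and Gm27761 had 0 cells with a read in the mixed dissection, and Zeb2os had 11 of 709 with a mean of 0.0511 CPM (the deposited unit, reads of a gene scaled to the cell's total), against 12.0 CPM for Zeb2.

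RefSeq promoter windows on GRCm38.p6 were found for 19 of 25 genes, made up of the 3 members, Zeb1 and the genes named below as the closest and the most opposed to each member over the mixed dissection. Pou3f1 was among those not found. The 250 bases before the start are shown for the first listed start of Zeb2, for Pter, which is among the 3 genes closest to each member, and for Pitpnc1 and Necab2, which lie at the opposite end for Zeb2 with Bcl11b and for Pou3f1. Capitals mark CACCT or its complement AGGTG, the core of the paired sites that ZEB proteins bind. The windows are chr2:45117443-45117692 on the minus strand for Zeb2, chr2:12923791-12924040 on the plus strand for Pter, chr11:107470721-107470970 on the minus strand for Pitpnc1 and chr8:119446469-119446718 on the plus strand for Necab2, none of which overlaps an annotated exon.
Zeb2: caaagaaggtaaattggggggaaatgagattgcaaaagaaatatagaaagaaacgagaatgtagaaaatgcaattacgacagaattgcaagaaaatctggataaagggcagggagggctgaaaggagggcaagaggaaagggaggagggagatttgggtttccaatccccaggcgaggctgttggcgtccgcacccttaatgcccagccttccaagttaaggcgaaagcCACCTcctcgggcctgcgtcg
Pter: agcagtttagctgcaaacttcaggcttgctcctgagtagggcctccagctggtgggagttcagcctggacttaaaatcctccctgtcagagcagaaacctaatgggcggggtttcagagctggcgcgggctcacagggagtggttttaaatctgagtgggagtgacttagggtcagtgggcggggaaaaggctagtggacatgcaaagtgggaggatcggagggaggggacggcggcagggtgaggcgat
Pitpnc1: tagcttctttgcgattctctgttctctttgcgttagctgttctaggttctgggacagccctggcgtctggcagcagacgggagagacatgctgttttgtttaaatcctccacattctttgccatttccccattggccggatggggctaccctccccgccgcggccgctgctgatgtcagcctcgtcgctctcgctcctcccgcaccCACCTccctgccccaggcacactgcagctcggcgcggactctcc
Necab2: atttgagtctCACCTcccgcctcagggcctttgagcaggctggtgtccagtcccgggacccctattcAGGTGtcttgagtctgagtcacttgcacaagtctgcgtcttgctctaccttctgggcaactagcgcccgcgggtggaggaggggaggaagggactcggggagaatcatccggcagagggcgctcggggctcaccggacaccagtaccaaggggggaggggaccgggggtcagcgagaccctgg
The window of Zeb2 held 1 match, that of Pter 0, that of Pitpnc1 1 and that of Necab2 2. Of 32851 promoter windows of the same length, 46.0% held CACCT on either strand (49.4% of 27025 genes in at least 1 window), 17.2% held CACCTG, which contains it, and 1.60% held the octamer ATGCAAAT that POU proteins bind. Of the 10 genes closest to Zeb2, 7 had windows, and CACCT was in 4 of their 10 windows (40.0%). For the 3 genes most opposed to Zeb2 it was in 3 of 6 windows (50.0%). Counted by gene, it was in 2 of 7 (28.6%) and 3 of 3 (100%), because some genes had several windows. These sets are too small to be told apart from the shares over all windows or genes. For the octamer, 0 of the 8 windowed genes among the 10 closest to Pou3f1 held a match. A match is a run of letters and not a measured site.

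Zeb2 and Pou3f1 were read in a larger share of cells in the mixed dissection, and Bcl11b in a like share of both. Zeb2 had a read in 3 of 290 cells of the pDR dissection (1.03%, exact 95% Clopper-Pearson interval 0.214 to 2.99), with at most 4 reads, and in 147 of 709 cells of the mixed dissection (20.7%, 17.8 to 23.9). Bcl11b had a read in 57 of 290 cells (19.7%, 15.2 to 24.7) and in 148 of 709 (20.9%, 17.9 to 24.1), so its share was alike while its mean was 3.02 CPM in the pDR dissection and 11.1 CPM in the mixed one. Pou3f1 had a read in 56 of 290 cells (19.3%, 14.9 to 24.3) and in 283 of 709 (39.9%, 36.3 to 43.6), with means of 1.74 and 17.9 CPM. Piezo2 had a read in 10 of 290 and in 121 of 709 cells. These intervals treat cells as independent and hold counting error only, so they leave out the spread between plates given below. Reads can also be PCR copies, which are not independent molecules.

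**Figure D1:**
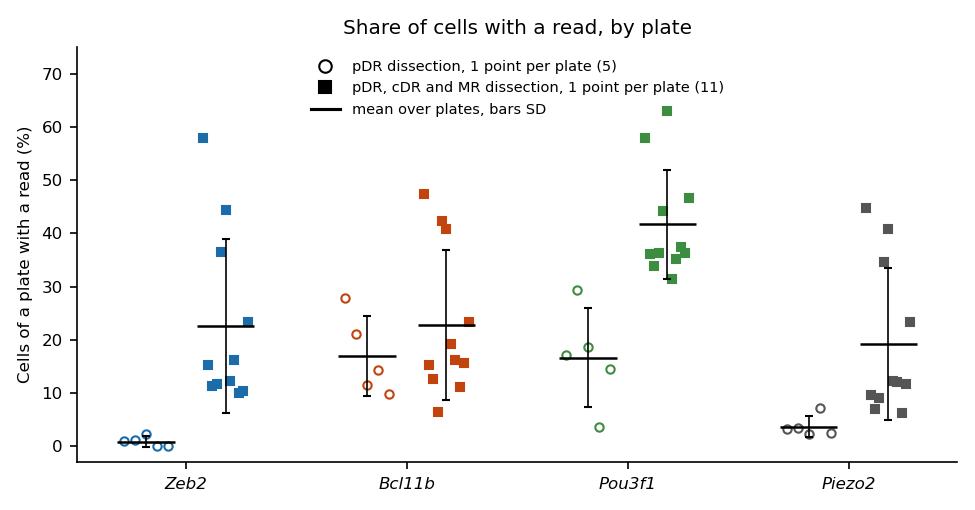
Share of cells with at least 1 read of each gene (percent, vertical axis), with 1 point for each plate, open circles for the 5 plates of the pDR dissection and filled squares for the 11 plates of the mixed dissection, and lines and bars for the mean and SD over plates. Zeb2 stays at or under 2.33% on every pDR plate, and plates of the mixed dissection run from 10.0% to 57.9%.

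Across the 11 plates of the mixed dissection the share of cells with Zeb2 ran from 10.0% through a median of 15.3% to 57.9%, with a mean of 22.7% ± 16.3 (SD over plates). Bcl11b ran from 6.49% through 16.2% to 47.4%, and Pou3f1 from 31.5% through 36.4% to 63.0%. Plates 48, 55 and 56 were the highest for Zeb2 (57.9%, 36.5% and 44.4%), for Bcl11b (47.4%, 42.3% and 40.7%) and for Piezo2 (44.7%, 34.6% and 40.7%), and they stood apart from the other 8 plates, where Zeb2 did not pass 23.3%. Without these 3 plates the shares of the remaining cells were 13.0% for Zeb2, 14.3% for Bcl11b and 35.9% for Pou3f1. No label says how these plates differ from the others, and the mix of regions on a plate was not tested. On the 5 pDR plates the highest share of Zeb2, 2.33%, lay under the lowest of the mixed dissection, while the pDR ranges, 9.76% to 28.0% for Bcl11b and 3.57% to 29.4% for Pou3f1, overlapped those of the mixed dissection for Bcl11b and did not for Pou3f1.

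Within the mixed dissection the 3 genes met in the cells with Piezo2. Of the 121 cells with a read of Piezo2, 106 had Zeb2 (87.6%, 80.4 to 92.9), 107 had Bcl11b (88.4%, 81.3 to 93.5) and 109 had Pou3f1 (90.1%, 83.3 to 94.8), and 102 had all 3 (84.3%, 76.6 to 90.3). Among the 588 cells with 0 reads of Piezo2 the shares were 6.97% for Zeb2, 6.97% for Bcl11b and 29.6% for Pou3f1, and each gene was more frequent in the Piezo2 cells on 11 of 11 plates. Given as a share of each gene's own cells, Piezo2 was read in 72.1% of the Zeb2 cells, 72.3% of the Bcl11b cells and 38.5% of the Pou3f1 cells. Zeb2 and Bcl11b shared 109 cells, which are 74.1% of the Zeb2 cells and 73.6% of the Bcl11b cells. Zeb2 and Pou3f1 shared 117 cells, which are 79.6% of the Zeb2 cells and 41.3% of the Pou3f1 cells. Without plates 48, 55 and 56, 70.7% of the Piezo2 cells had all 3 genes and 61.1% of the Zeb2 cells had Piezo2.

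In log2 of mean CPM plus 1, Piezo2 cells over the rest, Bcl11b was higher by 4.20 (means 55.0 and 2.05 CPM), Zeb2 by 3.69 (54.5 and 3.31 CPM) and Pou3f1 by 2.90 (66.2 and 8.01 CPM). Each was above 0 on 11 of 11 plates, from 2.74 to 6.63 for Bcl11b, from 1.30 to 6.07 for Zeb2 and from 1.43 to 4.37 for Pou3f1. All 3 passed a log2 of 2, and so did 33 of 8057 genes with a mean over 10 CPM, or 0.41%, but the genes were chosen on this contrast and nothing is read from that count. Outside the Piezo2 cells none of the 3 reached a mean of 10 CPM, so each entered that count through the cells where it was high.

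**Figure D2:**
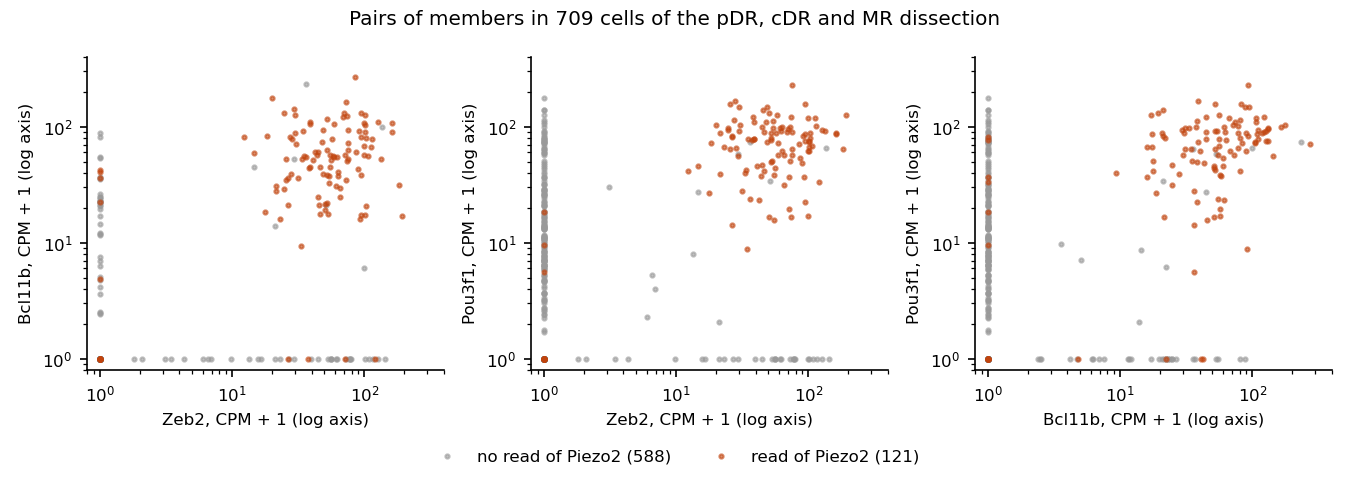
Each point is 1 of 709 cells of the mixed dissection, placed by the CPM plus 1 of a pair of members on log axes, in orange with a read of Piezo2 (121 cells) and in grey without (588 cells), and cells with 0 reads of a gene lie on its axis at 1. Most orange points lie away from both axes, as 102 of the 121 cells with Piezo2 had all 3 members, and most grey cells with a member lie along an axis.

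Most cells had either none or all of the 4 genes, or Pou3f1 alone. Of the 709 mixed cells, 355 had none of the 4 genes, 158 had Pou3f1 only, 102 had all 4, 29 had Zeb2 only, 29 had Bcl11b only and 8 had Piezo2 only, and no other pattern held more than 6 cells. No cell had Zeb2 with Piezo2 and lacked Pou3f1. Of the 15 Piezo2 cells without Zeb2, 9 had fewer than 5 reads of Piezo2, with a median of 4 and a maximum of 29 reads, whereas the 106 with Zeb2 had a median of 51.5 reads. In those 15 cells Gfra1, the GDNF co-receptor, was read in 15 with a mean of 175 CPM, as in the cells with none of the 4 genes (354 of 355, 161 CPM), against 31 of 102 and 3.49 CPM in the cells with all 4. When a gene had to have at least 5 reads to count, 94.5% of the Piezo2 cells had Zeb2, 93.6% Bcl11b, 96.3% Pou3f1 and 91.7% all 3.

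In the cells with all 4 genes the level of each spread over more than 10-fold without a tail at single reads. Zeb2 ran from 11.2 CPM through a median of 53.7 to 193 CPM, with at least 7 reads in every cell and a coefficient of variation of 58.2%. Bcl11b ran from 8.28 through 54.8 to 270 CPM with at least 7 reads, and Pou3f1 from 7.89 through 75.2 to 229 CPM with at least 6 reads. These 3 spreads overlap, and Pou3f1, with a coefficient of variation of 50.8%, was the least variable of them. Per kb of exon the order of mean levels in these cells was Pou3f1 at 19.7, Bcl11b at 7.87 and Zeb2 at 3.12 CPM per kb. Piezo2 was at 4.02 CPM per kb. The lengths are of all annotated exon blocks together and not of the transcripts expressed, so this order depends on that choice.

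**Figure D3:**
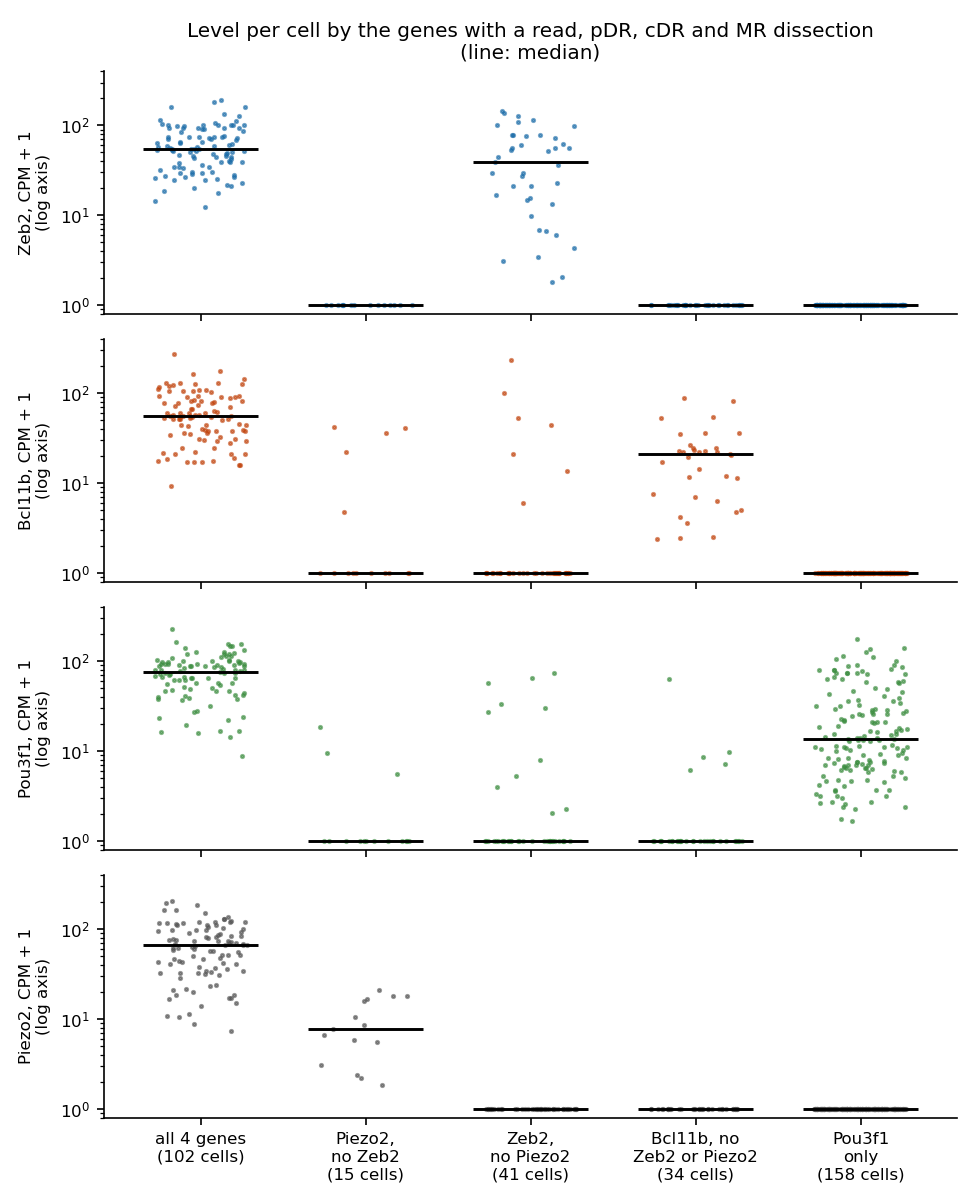
CPM plus 1 of Zeb2, Bcl11b, Pou3f1 and Piezo2 (4 rows, log axes) in every cell of 5 sets of the mixed dissection defined by which genes had a read, with the median as a line. Zeb2 has a median of 53.7 CPM in the 102 cells with all 4 genes and 38.3 CPM in the 41 cells with Zeb2 and no Piezo2, and Pou3f1 falls from 75.2 to 12.8 CPM in the 158 cells with Pou3f1 only.

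Outside the Piezo2 cells the positive cells reached down to single reads. Zeb2 had a median of 38.3 CPM in its 41 cells (0.821 to 142 CPM, 35 of 41 with at least 5 reads), which overlaps the range in the cells with all 4 genes. Bcl11b had a median of 20.0 CPM (1.41 to 87.5) in the 34 cells that lacked Zeb2 and Piezo2, and 11.7 CPM (0.541 to 66.7) in the 57 cells of the pDR dissection. Pou3f1 had a median of 12.8 CPM (0.690 to 175) in the 158 cells where it stood alone. In the 56 cells of the pDR dissection, of which 2 had Piezo2, it had a median of 6.90 CPM (1.25 to 34.3).

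When all 999 cells were clustered on every detected gene other than Zeb2, Bcl11b, Pou3f1, Piezo2 and Zeb2os, all 3 genes were high in 1 common cluster, Zeb2 and Pou3f1 were as high in 1 further cluster each, and Bcl11b was lower in 2 others. The common cluster held 110 cells on 11 plates, led by Pter, C1ql3 and Cxcl12, and was MR-4-like by the markers Kcnh8, Met, Npb, Htr1a, Chrm1 and Chrm2. Cxcl12 is a gene that the study names for MR-1, and it was on the marker list for MR-1 used here. There Zeb2 was read in 110 cells with a mean of 62.0 CPM (31.6 to 72.3 over plates), Bcl11b in 107 with 63.3 CPM (32.8 to 98.1), Pou3f1 in 110 with 74.1 CPM (37.9 to 85.2) and Piezo2 in 105 with 66.0 CPM. All 102 cells with the 4 genes fell in it. Plate 48 gave 36 of these 110 cells.

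Zeb2 was as high in a cDR-like cluster of 23 cells on 9 plates, led by Tecrl, S1pr3 and P2ry1, where it was read in all 23 with a mean of 62.4 CPM. In that cluster Bcl11b was read in 1 cell and Pou3f1 and Piezo2 in 0 of 23, which allows a share of up to 13.0%. Pou3f1 was as high in an MR-3-like cluster of 40 cells on 9 plates, led by Grik1, Spp1 and Nmbr, with a read in 37 cells and a mean of 65.8 CPM (39.7 to 90.6 over 8 plates), whereas Zeb2 was read there in 1 cell, Bcl11b in 2 and Piezo2 in 0. Bcl11b was read in 27 of 42 cells of a DR-1 or DR-2-like cluster (40 cells of the mixed and 2 of the pDR dissection), led by Sox14, Asb4 and Adamtsl2, at a mean of 14.1 CPM (3.17 to 31.9 over 8 plates), where Zeb2 was read in 0 and Pou3f1 in 3. In a cluster of the same name made of 106 pDR cells Bcl11b was read in 43 with a mean of 6.69 CPM. In the other 7 clusters Zeb2 had a mean of at most 0.790 CPM, Bcl11b of at most 1.58 CPM and Pou3f1 of at most 8.93 CPM. Cells of the pDR dissection separated by plate in this clustering, since that cluster and 2 others each held cells of only 2 plates, so levels were not compared between pDR clusters. The levels in the MR-4-like, MR-3-like and cDR-like clusters were nearly the same in the other 3 clusterings, from 61.8 to 62.0 CPM for Zeb2 in the MR-4-like cluster and from 64.4 to 67.6 CPM for Pou3f1 in the MR-3-like one.

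**Figure D4:**
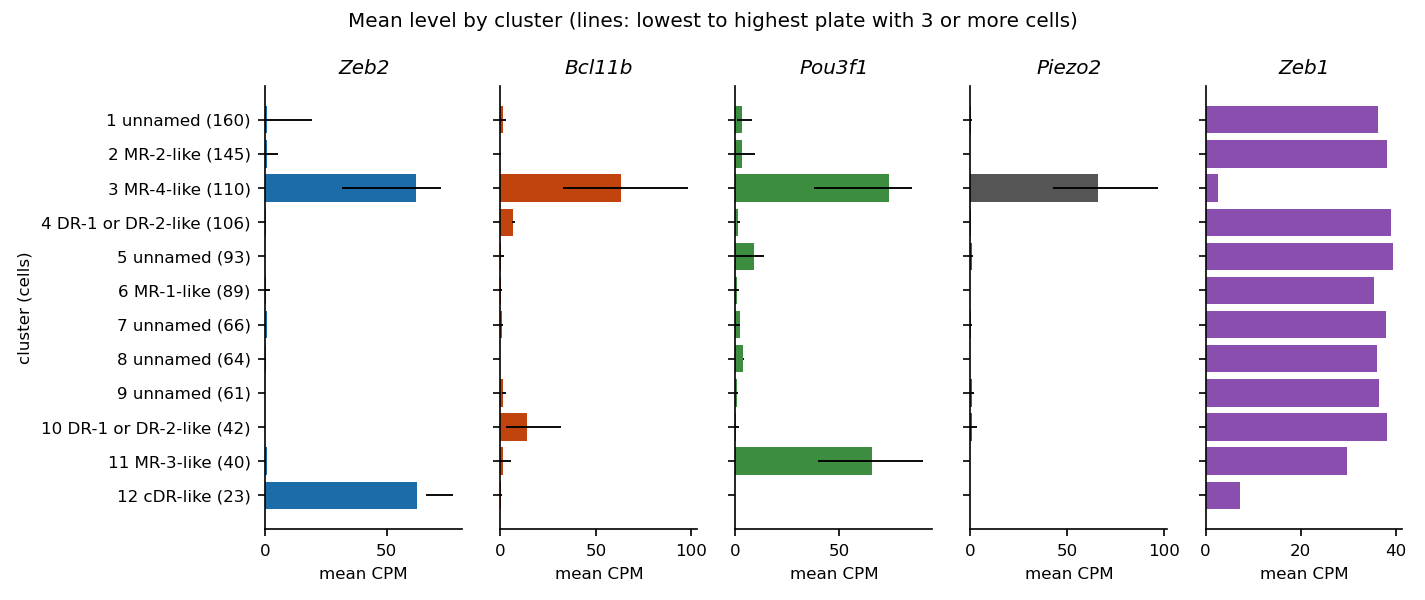
Mean CPM of Zeb2, Bcl11b, Pou3f1, Piezo2 and Zeb1 (horizontal axes from 0, each with its own scale) in 12 clusters made without the first 4 genes, with cell numbers in brackets and, for the first 4, lines from the lowest to the highest plate with 3 or more cells. Only the MR-4-like cluster is high for all 3 members, Zeb2 is also high in the cDR-like and Pou3f1 in the MR-3-like cluster, and Zeb1 is low in the clusters where Zeb2 is high.

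The 41 mixed cells with Zeb2 and no Piezo2 were mostly of the caudal type, with 22 in the cDR-like cluster, 7 in the MR-2-like, 5 in the MR-4-like and 7 elsewhere. Between them and the 547 mixed cells with neither gene, 21 of 8057 genes passed a log2 of 2 (0.261%). They shared some genes with the cells of all 4 and lacked others. Met, the receptor of hepatocyte growth factor, was read in 27 of 41 (mean 21.1 CPM) and in 88 of 102 (21.8 CPM), and it was read in 0 of the 355 cells with none of the 4 genes. Rxfp1, a relaxin receptor, was read in 27 of 41 and in 91 of 102, and Chrm2, the M2 muscarinic receptor, in 35 of 41 (123 CPM) and 102 of 102 (321 CPM). Kcnh8, a voltage-gated potassium channel gene, was read in 5 of 41 and in 92 of 102. The other direction held for Tacr3, the neurokinin B receptor (24 of 41 and 7 of 102), for Calcr, the calcitonin receptor (23 and 1), for Oprm1, the mu opioid receptor (23 and 0), and for Sox13 (22 and 0). Synpr, a synaptic vesicle gene, was read in 24 of 41 cells with a mean of 146 CPM and in 0 of 102. Slc17a8, the vesicular glutamate transporter VGLUT3, was read in 40 of 41 cells at 236 CPM and in 77 of 102 at 34.0 CPM.

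Zeb1, the paralogue of Zeb2 with the same binding core, ran opposite to it. Zeb1 was read in 335 of the 355 mixed cells with none of the 4 genes (mean 37.2 CPM), in 24 of the 41 with Zeb2 and no Piezo2 (15.8 CPM) and in 22 of the 102 with all 4 (2.51 CPM). Between Piezo2 cells and the rest its log2 difference was -2.11, and it was lower on 10 of 11 plates. By cluster Zeb1 had a mean of 2.71 CPM in the MR-4-like and 7.33 CPM in the cDR-like cluster, against 29.6 CPM in the MR-3-like and 38.1 CPM in the DR-1 or DR-2-like cluster led by Sox14. Its correlation with Zeb2 over the mixed cells was -0.62 and outside the Piezo2 cells -0.34. In the pDR dissection, where Zeb2 was almost unread, Zeb1 was read in 54 of 57 cells with Bcl11b and in 221 of 233 without.

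Of 10 listed serotonin identity factors, 8 were detected and 5 passed a mean of 10 CPM. None of these 5 passed a log2 of 2 in either direction between Piezo2 cells and the rest. Fev, the Pet1 gene, was read in every cell of both sets and differed by -0.12 (203 and 221 CPM). Gata2 was lower by -1.17 (78.7 and 179 CPM) and Gata3 higher by 0.61 (628 and 412 CPM), each with that sign on 11 of 11 plates. En1, which marks the territory from which the dorsal raphe comes, was lower by -1.72. En1 was read in 12 of 102 cells with all 4 genes and in 33 of 41 with Zeb2 and no Piezo2, and in the clusters in 16 of 110 MR-4-like, 2 of 40 MR-3-like, 21 of 23 cDR-like and 42 of 42 DR-1 or DR-2-like cells. Both clusters with high Zeb2 thus differed in En1, and so did the MR-4-like and DR-1 or DR-2-like clusters with Bcl11b.

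In all pDR cells and in the mixed cells with 0 reads of Piezo2, Trh, Pax5, Sox14, Gad2 and Gad1 were read more often with Bcl11b. This describes shares of cells for genes chosen after the values were seen. In the pDR dissection Trh, the thyrotropin-releasing hormone gene, was read in 42 of 57 cells with Bcl11b (73.7%, 60.3 to 84.5) and in 56 of 233 without (24.0%, 18.7 to 30.0), higher on 5 of 5 plates. Pax5, a paired-box factor, was read in 55 of 57 and 112 of 233, Sox14 in 41 and 58, and Gad2, a GABA-synthesising enzyme gene, in 53 and 120, each higher on 5 of 5 plates, and Gad1 in 40 and 66, higher on 4 of 5. In the mixed cells with 0 reads of Piezo2, Trh was read in 20 of 41 cells with Bcl11b (48.8%, 32.9 to 64.9) and in 13 of 547 without (2.38%, 1.27 to 4.03), and Pax5 in 29 of 41 and 49 of 547, each higher on 7 of 8 plates with enough cells. There Sox14 was read in 25 and 24, Gad1 in 11 and 14 (both higher on 7 of 8) and Gad2 in 27 and 93 (8 of 8). Calb2, the calretinin gene, went the other way, with 2 of 57 and 91 of 233 in the pDR dissection, as did Slc17a8 with 9 of 57 and 122 of 233. In the MR-4-like cluster, where Bcl11b was highest, Trh was read in 3 and Pax5 in 0 of 110 cells.

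Outside the Piezo2 cells, Calb2 was read in 139 of 174 cells with Pou3f1 (79.9%, 73.2 to 85.6) and in 194 of 414 without (46.9%, 42.0 to 51.8), at means of 102 and 15.4 CPM and higher on 10 of 11 plates. Grik1, a kainate receptor subunit gene, was read in 63 of 174 and 66 of 414, and Cnr1, the CB1 cannabinoid receptor, in 63 and 67, both higher on 11 of 11 plates. In the pDR dissection Calb2 was read in 36 of 56 cells with Pou3f1 and in 57 of 234 without, higher on 4 of 4 plates, and Grik1 in 12 of 56 and 2 of 234, while Cnr1 did not follow (11 of 56 and 57 of 234, higher on 1 of 4 plates). In that dissection Pou3f1 and Bcl11b shared 7 cells, which are 12.5% of the Pou3f1 cells and 12.3% of the Bcl11b cells, against 21.4% of the cells without Pou3f1 that had Bcl11b, so the overlap seen with Piezo2 was not met there.

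Correlations were taken over cells as Pearson's r of ln(CPM+1) after each plate's mean was removed, and they describe cells that share plates and depth. Over the 709 mixed cells r was 0.70 for Zeb2 with Bcl11b (0.37 to 0.98 over plates), 0.53 for Zeb2 with Pou3f1 (0.10 to 0.93) and 0.55 for Bcl11b with Pou3f1 (0.19 to 0.87), above 0 on 11 of 11 plates each. Without plates 48, 55 and 56 these were 0.58, 0.37 and 0.38. Genes with r over 0.3 numbered 127 of 8057 for Zeb2 (1.58%), 101 for Bcl11b (1.25%) and 78 for Pou3f1 (0.968%). Among genes with a mean over 10 CPM, to which the rankings here and below are limited, the 10 closest to Zeb2 were Adamtsl1, an extracellular matrix glycoprotein gene (0.84), Piezo2 (0.77), Pter (0.76), C1ql3, a secreted synaptic protein gene (0.74), Chrm2 (0.72), Galnt18 (0.71), Bcl11b (0.70), Cxcl12, a chemokine gene (0.65), Stxbp6 (0.65) and Pde4b, a cyclic AMP phosphodiesterase gene (0.60). The list of Bcl11b held 8 genes of these 10 beside Zeb2, with Piezo2 first (0.79) and Dpy19l1 as the one not met in that of Zeb2. Pou3f1 was closest to Calb2 (0.69), then to Piezo2 (0.63), Pter (0.61), C1ql3 (0.61) and Kctd8, a GABAB receptor partner gene (0.59). All of these had the same sign on 11 of 11 plates. The genes Pter and C1ql3 end 2 bases apart on opposite strands of chromosome 2, so with unstranded counting their values cannot be fully told apart.

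Zeb2 had negative relations as strong as its positive ones. Gfra1 had r = -0.85, Pitpnc1, a phosphatidylinositol transfer protein gene, -0.83, and Chn2, a Rac GTPase-activating protein gene, -0.79, each below 0 on 11 of 11 plates. For Bcl11b the lowest were Pitpnc1 (-0.71), Ntm, a cell adhesion gene (-0.70), and Chn2 (-0.70), and for Pou3f1 they were Necab2, a calcium-binding protein gene (-0.62), Cdk14 (-0.62) and Clstn2 (-0.59). Genes under -0.3 numbered 247 for Zeb2 (3.07%), 168 for Bcl11b (2.09%) and 137 for Pou3f1 (1.7%), more than lay over 0.3 for each member. Gfra1 was read in 2 of 23 cells of the cDR-like and 32 of 110 of the MR-4-like cluster, the clusters with high Zeb2, and in all 40 and all 42 cells of the MR-3-like cluster and the DR-1 or DR-2-like cluster led by Sox14.

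**Figure D5:**
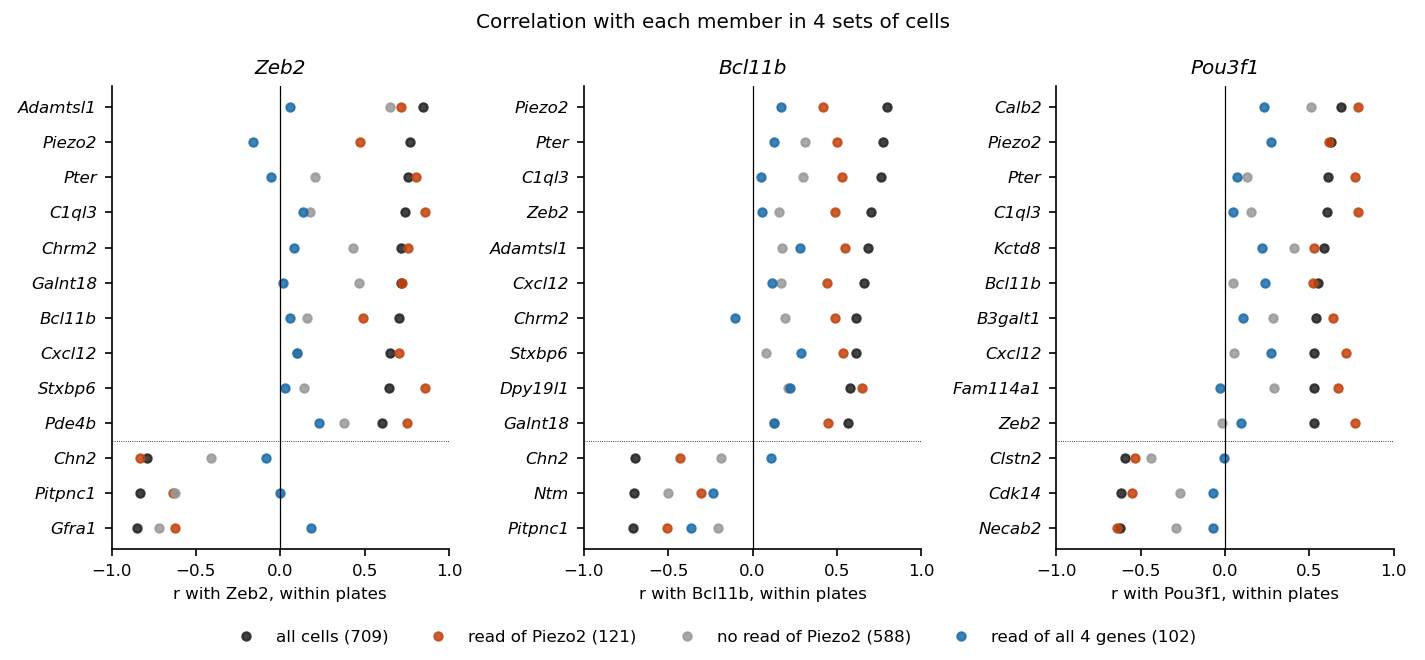
Pearson's r within plates (horizontal axis, -1 to 1) of each member with its 10 closest and, under the dotted line, its 3 most opposed genes over the 709 mixed cells (black), and the r of the same genes in the 121 cells with Piezo2 (orange), the 588 without (grey) and the 102 with all 4 genes (blue). The blue points lie between -0.37 and 0.29 for all genes shown.

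Inside the 121 Piezo2 cells r was 0.49 for Zeb2 and Bcl11b (above 0 on 9 of 11 plates), 0.77 for Zeb2 and Pou3f1 (10 of 11) and 0.52 for Bcl11b and Pou3f1 (11 of 11), and 275, 201 and 272 genes passed 0.3 for Zeb2, Bcl11b and Pou3f1 (3.41%, 2.49% and 3.38%), while 336, 123 and 347 lay under -0.3 (4.17%, 1.53% and 4.31%). Zeb2 was closest to Nr2f2, the COUP-TFII gene (0.87), Stxbp6 (0.86), C1ql3 (0.85), Oxtr, the oxytocin receptor gene (0.80), and Pter (0.80). Bcl11b was closest to Dpy19l1 (0.65), Ssbp2 (0.62), Basp1 (0.57), Adamtsl1 (0.55) and Oxtr (0.54), and Pou3f1 to Stxbp6 (0.81), Nr2f2 (0.81), C1ql3 (0.79), Calb2 (0.79) and Zeb2 (0.77). These values include the 15 cells with Piezo2 and no Zeb2. Of those 15, 0 were in the MR-4-like cluster and 5 in the DR-1 or DR-2-like cluster led by Sox14, and the rest were in unnamed clusters. The values thus take in differences between clusters as well as those within the MR-4-like cells. In the 102 cells with all 4 genes, a set chosen after the values were seen, r was 0.06 for Zeb2 and Bcl11b (above 0 on 4 of 8 plates), 0.09 for Zeb2 and Pou3f1 (7 of 8) and 0.23 for Bcl11b and Pou3f1 (6 of 8), and with Piezo2 it was -0.16, 0.17 and 0.27. Of 8035 genes, those over 0.3 then numbered 16 for Zeb2 (0.199%), 24 for Bcl11b (0.299%) and 29 for Pou3f1 (0.361%), led by Ddx41 (0.40), Tmed2 (0.37) and Nnat (0.42), and 12, 10 and 55 lay under -0.3 (0.149%, 0.124% and 0.685%). With ranks in place of ln(CPM+1), r of Zeb2 and Pou3f1 inside the Piezo2 cells was 0.25, and 50, 49 and 71 genes passed 0.3.

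Outside the Piezo2 cells the members parted. Over the 588 cells r was 0.16 for Zeb2 and Bcl11b, -0.02 for Zeb2 and Pou3f1 and 0.05 for Bcl11b and Pou3f1, values whose sign did not hold when plates were left out for the pairs with Pou3f1, and 15, 6 and 13 of 8056 genes passed 0.3 for Zeb2, Bcl11b and Pou3f1 (0.186%, 0.0745% and 0.161%), with 58, 4 and 28 under -0.3 (0.72%, 0.0497% and 0.348%). Among genes with a mean over 10 CPM Zeb2 was closest to Adamtsl1 (0.65), Galnt18 (0.47), Ighm (0.43), Chrm2 (0.43) and Synpr (0.42), and of the listed genes under that mean Met (0.84), Tacr3 (0.60) and Gipr (0.48) had r above that of Galnt18. Bcl11b was closest by the same limit to Trh (0.45), Asb4 (0.39) and Fam19a2 (0.38), then Strip2 and Pter (both 0.31), while Pax5 (0.49) and Sox14 (0.48), under that mean, had r above that of Trh, and Trh, Fam19a2 and Asb4 were also among its 5 closest in the pDR dissection (0.40, 0.39 and 0.39). Pou3f1 was closest to Calb2 (0.51), Tnfrsf11b, the osteoprotegerin gene (0.50), Grik1 (0.43), Kctd8 (0.41) and Vstm2a (0.39), and in the pDR dissection to Npas1 (0.54) and Calb2 (0.45). The 5 genes named outside the Piezo2 cells for each member were shared by no other member. Lists of 5 out of 8056 genes would seldom overlap in any case, so nothing is read from that. In the pDR dissection 17 of 8103 genes passed 0.3 for Bcl11b (0.21%) and 7 for Pou3f1 (0.0864%), with 14 and 5 under -0.3 (0.173% and 0.0617%).

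Among the listed families and partners of the 3 proteins with a mean over 10 CPM, only Zeb1 passed a log2 of 2 in either direction. The SMAD list and the POU and SOX list had too few such genes to be read as groups. Of 16 listed genes of the ZEB family and its corepressors, 13 passed the mean of 10 CPM. Of these, 0 were above a log2 of 2 in the Piezo2 cells, beside 33 of 8057 genes (0.41%). Only 1, Zeb1, was under -2, beside 92 of 8057 genes (1.14%). The median log2 was 0.10, beside 0.02 over all 8057 genes. Chd3, a NuRD helicase gene, was higher by 0.78 (92.4 and 53.4 CPM, 11 of 11 plates) and had r = 0.30 with Zeb2. Of 16 genes of the BCL11 family and neuronal BAF subunits 13 passed the mean, with 0 past a log2 of 2 in either direction and a median of 0.05, and Bcl11a, the other BCL11 gene, was read in 0 of the 102 cells with all 4 genes and in 37 of the 355 with none. Of 17 SMAD and BMP or TGF-beta signalling genes 4 passed the mean, between -0.12 and 0.13. Of 17 POU and SOX genes, not counting Pou3f1, 1 passed, Sox11, which was higher by 1.85 (51.9 and 13.7 CPM) with the same sign on 11 of 11 plates and had r = 0.45 with Zeb2. Of 13 factors of other serotonin subtypes 0 passed the mean, and 4 of 7 immediate-early genes passed it, between -0.48 and 0.38. Of the genes the study names for MR-4 and cDR cells, 2 of 7 and 4 of 11 passed, with 1 of each past a log2 of 2, Chrm2, but the study chose these lists on the same cells. Under that mean, Kcnh8 (3.73), Met (3.00), Chrm1 (2.86) and Npb (2.12) of these lists were past 2. Tacr3 (-2.14) and Oprm1 (-2.36) of these lists were past -2. So were Irx2 (-2.68) and Npas1 (-2.35) of the factors of other subtypes and Sox5 (-2.08) of the SOX genes. Each had that sign on 11 of 11 plates but for Tacr3, Npas1 and Sox5 (10 of 11 each). The other class III POU genes were low, Pou3f2 at 0.327 and 1.04 CPM, Pou3f3 at 0.879 and 2.21 CPM and Pou3f4 at 0.0853 and 0.399 CPM in Piezo2 cells and the rest.

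All 999 cells had a distinct profile, with a median of 827283 reads on genes per cell (96834 to 2780443), 910056 in the cells with all 4 genes, 797703 in those with Zeb2 and no Piezo2 and 929491 in those with none. Over the mixed cells r of a member with ln reads was between -0.06 and 0.06. When every cell was thinned to 250000 reads, which left out 8 of the mixed cells, Zeb2 was read in 20.4%, Bcl11b in 20.4% and Pou3f1 in 36.9%. Of 7 microglia markers 5 were detected, and a read of any was found in 11 of 102 cells with all 4 genes (at most 88.2 CPM summed) and in 7 of 355 with none. Microglia are known to make Zeb2 as well. Any of the 6 astrocyte markers was read in 48 of 102 and 108 of 355 cells. The 11 oligodendrocyte markers summed to medians of 103 and 109 CPM in these sets (and 95.4 CPM, at most 15009, in the cells with Zeb2 and no Piezo2), and Mog, Olig2, Pdgfra and Cspg4 were at 0 in the cells with all 4 genes. In the cells with Zeb2 and no Piezo2 a microglia marker was read in 2 of 41, with at most 1.25 CPM. Either of the 2 endothelial markers detected was read in 2 of 102 cells with all 4 genes and in 5 of 355 with none, and any of the 3 detected markers of other neurons in 1 of 102 and 24 of 355. The part of these other cells in the results was not tested.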

How the data were processed

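The authors demultiplexed 75-base read pairs with bcl2fastq 2.19.0.316, aligned them with STAR 2.6.1a to mm10 and counted exon reads with HTSeq 0.11.2 without regard to strand, as the submitters' processing notes and the study's methods give it, keeping cells over 300 genes and 50000 reads and dropping Y-linked genes. The deposited table holds CPM, and the authors' CPM values above 0 were whole multiples of each cell's smallest step (100% within 0.001), from which reads per gene were taken for depth and read minimums. A further 537 labelled cells were not analysed here.

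Cells were read with Python 3.11.15, NumPy 2.4.6, SciPy 1.17.1 and pandas 2.3.3, and drawn with matplotlib 3.10.9. A gene was present in a cell from 1 read. Shares carry exact Clopper-Pearson 95% intervals, and a share of 0 allows up to 3 counts of the total. Correlations and log2 differences (pseudocount 1 CPM) used 8057 genes with a mean over 10 CPM. Clusters came from Seurat 5.3.0 in R 4.3.3 (20 components, resolution 1, 5 genes held out) and were named from markers. Cells were sorted singly and no doublet caller was run, so doublets and attached cells were not excluded. A separate check found 0 of 999 cells identical to another, which does not detect doublets. Each dissection was 1 sample, so no p-value was computed. The functions were tested on simulated data.

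The named genes are the members and Piezo2, for each member the 10 highest and 3 lowest r over the mixed cells, the 5 highest inside and outside the Piezo2 cells, and the genes of fixed lists. Members and lists were chosen with earlier results of these data known. The sets by pattern of reads, the genes shown beside Bcl11b and Pou3f1 outside the Piezo2 cells, and the alternative without plates 48, 55 and 56 were chosen after the values were seen. Alternatives changed the read minimum, depth, pseudocount, filter, centring, correlation, clustering and plates.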

Additional observations from a re-analysis of the deposited data

How the results depend on the processing

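Over 39 results, 59 of 602 alternative values moved. Moved means beyond the reported share's interval, by over 1.5 times for a count, or by over 1 SD of the spread for another value. Most of the 602 values left out each plate in turn. Of the 206 other values, 51 moved. The cause was not tested. Outside the Piezo2 cells, r of Zeb2 and Pou3f1 (-0.02) changed sign, to 0.012 without plate 60, 0.0030 without plate 52 and 0.015 where Piezo2 cells had at least 5 reads, and r of Bcl11b and Pou3f1 (0.05) was -0.02 without plates 48, 55 and 56. No paired analysis was possible because the dissections share no replicate numbers and no test was run, and differences between Piezo2 cells and the rest were also taken within each plate. With at least 5 reads for a call, the shares of Piezo2 cells were 94.5% with Zeb2, 93.6% with Bcl11b, 96.3% with Pou3f1 and 91.7% with all 3, and 34.0% of mixed cells had Pou3f1. With at least 10 CPM, 95.3% of Piezo2 cells had Zeb2, 95.3% Pou3f1 and 90.6% all 3, 29.1% of mixed cells had Pou3f1, and 49.0% of Pou3f1 cells had Piezo2.

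Without plates 48, 55 and 56, chosen after seeing the data, Zeb2, Bcl11b and Pou3f1 were read in 13.0%, 14.3% and 35.9% of mixed cells and in 75.9%, 77.6% and 81.0% of Piezo2 cells, of which 70.7% had all 3, and Piezo2 was read in 61.1%, 57.0% and 23.6% of their cells. Genes over r = 0.3 then numbered 76, 49 and 41 over the mixed cells, 595, 668 and 546 inside the Piezo2 cells and, for Zeb2, 23 outside. Leaving out each plate in turn gave 16.3% to 22.1% for mixed cells with Zeb2 (lowest without plate 48, highest without plate 63), 17.7% to 22.6% for mixed cells with Bcl11b (lowest without plate 48, highest without plate 52), 31.4% to 41.6% for Pou3f1 cells with Piezo2 (lowest without plate 48, highest without plate 52). It gave 131 to 376 for genes with r over 0.3 with Bcl11b inside the Piezo2 cells (lowest without plate 60, highest without plate 48), 9 to 18 for genes with r over 0.3 with Zeb2 outside them (lowest without plate 60, highest without plate 48), 3 to 8 for genes with r over 0.3 with Bcl11b outside them (lowest without plate 64, highest without plate 50), 61 to 123 for genes with log2 under -2, Piezo2 cells over the rest (lowest without plate 48, highest without plate 52).

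Inside the Piezo2 cells, ranks gave 50, 49 and 71 genes over 0.3 and r = 0.25 for Zeb2 and Pou3f1. The 102 cells with all 4 genes gave 16, 24 and 29 genes, with r = 0.093 for Zeb2 and Pou3f1 and 0.23 for Bcl11b and Pou3f1. Without plate centring there were 433 genes for Zeb2 and 444 for Bcl11b (152 over the mixed cells), and for Bcl11b there were 132 with a pseudocount of 10 CPM and 115 where Piezo2 cells had at least 5 reads. Outside, a pseudocount of 10 CPM gave 29 genes for Zeb2 and 37 for Pou3f1, and a mean over 2 CPM gave 37 for Zeb2 and 17 for Bcl11b. Genes past a log2 of 2 and -2 between Piezo2 cells and the rest numbered 20 and 14 with a pseudocount of 10 CPM, where Bcl11b differed by 2.43, and 73 and 148 with no filter, and 153 were under -2 where Piezo2 cells had at least 5 reads. A gene's absence from a cell at single reads is limited by depth.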
